A study of Mus musculus with 10 samples.

Results

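The mammary gland transcripts described here come from *Cybrd1*, which encodes the ferric reductase duodenal cytochrome b, and from 8 other genes that take up, carry, store or release iron. The 9 genes were chosen by name, as *Cybrd1*, *Steap3*, *Steap4*, *Slc11a2*, *Tfrc*, *Trf*, *Slc40a1*, *Fth1* and *Hfe*, out of 46983 genes in the count files. They were picked with the diet values of these libraries known, and *Cybrd1* ranked 1 of the 15610 genes tested when genes were ordered by p for the diet difference. Differences between the diets for these 9 genes are therefore a description and carry no test.

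Each library came from 1 C57BL/6 mouse, a female that had not been mated. The CFA group (n = 5) ate 1 mg folic acid (FA) per kg of diet for 4 weeks, and the HFA group (n = 5) ate 5 mg FA per kg of diet for the same time. Both groups then ate the same maintenance diet for 4 weeks, and the right thoracic fat pad was taken whole at PND 130. The fat pad holds ducts, fat, connective tissue, vessels and neighbouring muscle, so an RNA level is an average over all of these, and fewer cells of a type cannot be told apart from less RNA per cell.

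Dietary iron is reduced from the ferric to the ferrous form by membrane reductases before a transporter can carry it into the cell. In most tissues iron arrives bound to transferrin, which is taken up by the transferrin receptor, and the iron is reduced in the endosome and moved to the cytosol by the divalent metal transporter. Iron that is not used is stored in ferritin or leaves the cell through ferroportin, which hepcidin from the liver removes from the membrane. Iron regulatory proteins bind a stem loop called the iron responsive element when iron is scarce. Bound in the 5′ UTR they block translation, and bound in the 3′ UTR they protect the transcript from decay.

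The stem loops are shown because they are the sequence through which iron acts on ferritin, ferroportin and transferrin receptor transcripts. GENCODE M21 transcripts (GRCm38) were searched on the sense strand of both UTRs for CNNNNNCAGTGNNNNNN with at least 5 paired positions around the loop, where G with T also counted as a pair. The pattern stood in the 5′ UTR of 0.136% of the 20561 genes with such a region and in the 3′ UTR of 0.606% of 20954 genes. Among the 9 genes it stood in *Fth1*, *Slc40a1* and *Tfrc*, and no match was found in the windows of *Cybrd1*, *Steap3*, *Steap4*, *Slc11a2*, *Trf* and *Hfe*, which says only that these letters are not there and not that a transcript lacks the element, since *Slc11a2* is known for one in its 3′ UTR. The light ferritin chain *Ftl1*, a partner of *Fth1*, is shown for comparison. Capitals mark the 6 bases of the loop, and each run of 29 bases is written 5′ to 3′ on the strand of the gene.
Fth1, 5′ UTR, chr19:9982732-9982760, plus strand: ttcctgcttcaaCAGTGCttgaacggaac
Ftl1, 5′ UTR, chr7:45459779-45459807, minus strand: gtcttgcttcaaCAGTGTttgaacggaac
Slc40a1, 5′ UTR, chr1:45925465-45925493, minus strand: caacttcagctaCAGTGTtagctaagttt
Tfrc, 3′ UTR, chr16:32631219-32631247, plus strand: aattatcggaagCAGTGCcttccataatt
Tfrc, 3′ UTR, chr16:32631598-32631626, plus strand: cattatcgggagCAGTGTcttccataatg
Tfrc, 3′ UTR, chr16:32631663-32631691, plus strand: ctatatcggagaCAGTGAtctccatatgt
Tfrc, 3′ UTR, chr16:32631710-32631738, plus strand: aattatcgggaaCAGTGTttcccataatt

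The libraries held 7672199 to 14829291 reads on genes. Levels are given as CPM, the reads of a gene relative to the size of the library, after TMM scaling. Library T2334 (HFA) stood apart, with a median correlation of 0.798 with the others against 0.918 to 0.970 for the rest. Markers of B cells summed to 353 CPM in T1234, 939 CPM in T1334 and 2729 CPM in T2334 and to at most 5.68 CPM in the other 7 libraries. Skeletal muscle markers summed to 5914 to 36479 CPM in CFA and to 668 to 48397 CPM in HFA, with the lowest value in T2334. White adipocyte markers, at 9333 to 16317 CPM, and luminal epithelial markers, at 343 to 1908 CPM, were present in every library, as the labelled tissue requires. No gene in the table passed an adjusted p of 0.05 between the diets (0% of genes tested, edgeR quasi-likelihood test with Benjamini-Hochberg adjustment), and 7.36% had an unadjusted p below 0.05. Without T2334 the latter count went from 1149 to 4059 genes.

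*Cybrd1* (ENSMUSG00000027015) lies on the plus strand of chromosome 2 at 71117923 to 71142926 in GRCm38. In the CFA libraries T1224, T1234, T1314, T1324 and T1334 it stood at 16.4, 14.04, 22.2, 5.13 and 5.00 CPM. In the HFA libraries T2214, T2224, T2234, T2314 and T2334 it stood at 1.11, 2.16, 1.14, 1.28 and 1.59 CPM. Every HFA library was below every CFA library, and 0.243% of all genes tested were separated in this direction. The CFA libraries themselves fell into 3 high and 2 low values with a 4.43-fold span, whereas the HFA libraries spanned 1.95-fold. The mean of CFA was 12.5 ± 7.44 CPM and that of HFA 1.45 ± 0.44 CPM (SD, n = 5 each), a ratio of 8.63, and the fitted difference was -3.09 ± 0.46 on the log2 scale (SE, HFA minus CFA). Among the 9 genes it was the only one with an unadjusted p below 0.05, which 3.49% of all genes had with a lower level in HFA, and nothing is read from this because the gene was chosen on that contrast.

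The HFA values rest on few reads. *Cybrd1* had 239, 128, 341, 71 and 67 reads in the CFA libraries in the order above, and 10, 25, 8, 14 and 25 reads in the HFA libraries. The exact 95% Poisson interval of the lowest CFA library, T1334, ran from 3.87 to 6.35 CPM, and that of the highest HFA library, T2224, from 1.40 to 3.18 CPM. These intervals cover counting error only, since the reads carry no molecular identifiers, and they did not overlap. When single libraries were removed, the fitted difference stayed between -3.29 (without T1334) and -2.83 (without T1314), and without T2334 it was -3.16 ± 0.53 (SE).

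**Figure D1:**
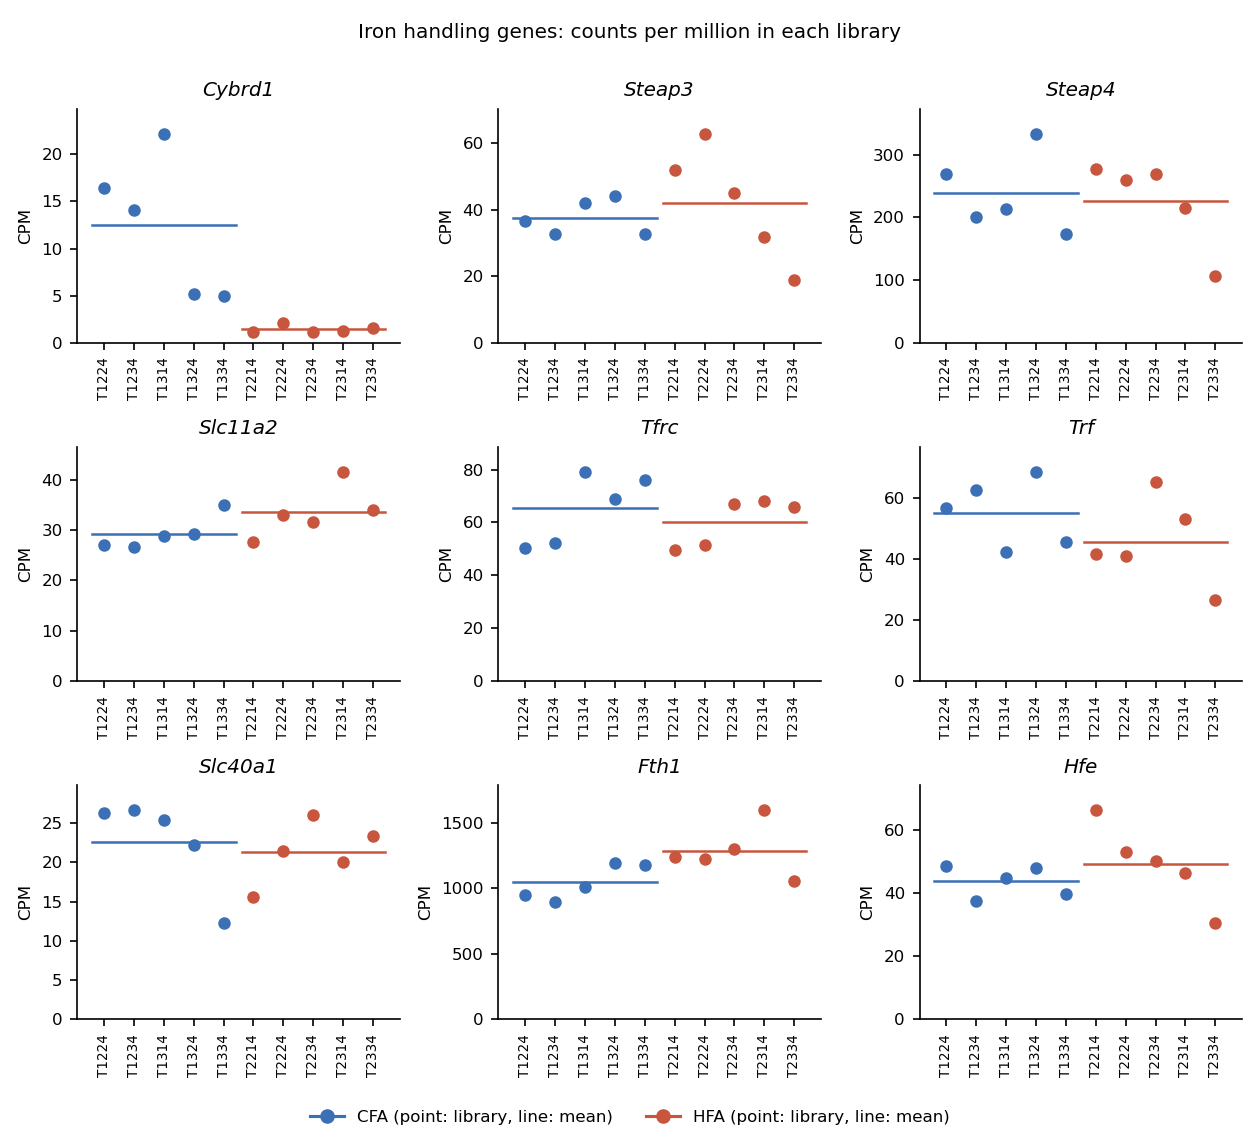
Level of the 9 iron handling genes in each of the 10 libraries, as CPM on a linear axis from 0, with 1 point per library, CFA in blue, HFA in red and a line at the mean of each group. *Cybrd1* stood at 5.00 to 22.2 CPM in CFA and at 1.11 to 2.16 CPM in HFA, and for the other 8 genes the groups overlapped.

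The library titles hold a second digit, 2 or 3, whose meaning the labels do not give, and the diet values were also taken within it. Among libraries with digit 2, *Cybrd1* stood at 14.04 to 16.4 CPM in CFA (n = 2) and at 1.11 to 2.16 CPM in HFA (n = 3). Among those with digit 3, it stood at 5.00 to 22.2 CPM in CFA (n = 3) and at 1.28 to 1.59 CPM in HFA (n = 2). The groups had to be separated within both digits because they were separated over all libraries, so nothing further is read from it. The fitted differences were -3.34 ± 0.68 within digit 2 and -2.89 ± 0.74 within digit 3 on the log2 scale (SE). The difference between these values was 0.45 ± 0.96 (SE), smaller than its error.

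Markers of several cell types differed between the libraries that were high and low in *Cybrd1*. In CFA, the skeletal muscle markers summed to 5914 to 18426 CPM in the 3 libraries with high *Cybrd1* and to 29316 and 36479 CPM in T1324 and T1334. In HFA, where *Cybrd1* was lower still, they summed to 36476 to 48397 CPM in 4 of the 5 libraries. Brown adipocyte markers followed the same order within CFA, with 99.9 to 235 CPM in the 3 high libraries and 370 and 687 CPM in the 2 low ones, and summed to 213 to 1987 CPM in HFA. Fibroblast markers summed to 4679 to 6690 CPM in the 3 CFA libraries with high *Cybrd1* and to 4067 and 1593 CPM in the other 2. HFA library T2334 held the least muscle and fibroblast signal, with 668 CPM and 584 CPM, and its *Cybrd1* level of 1.59 CPM lay inside the HFA range. HFA library T2224, with fibroblast markers of 5327 CPM, above 3 of the 5 CFA libraries, had the highest HFA level of *Cybrd1* at 2.16 CPM. The 3 libraries with B cell markers over 100 CPM lay on both sides. Without them *Cybrd1* stood at 5.13 to 22.2 CPM in CFA (n = 3) and at 1.11 to 2.16 CPM in HFA (n = 4). No overlap could arise from leaving libraries out, since the groups were separated over all of them. All defining markers of muscle, fibroblasts and B cells were above 0 in all 10 libraries, and the part of tissue makeup in the *Cybrd1* difference was not tested beyond these values.

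**Figure D2:**
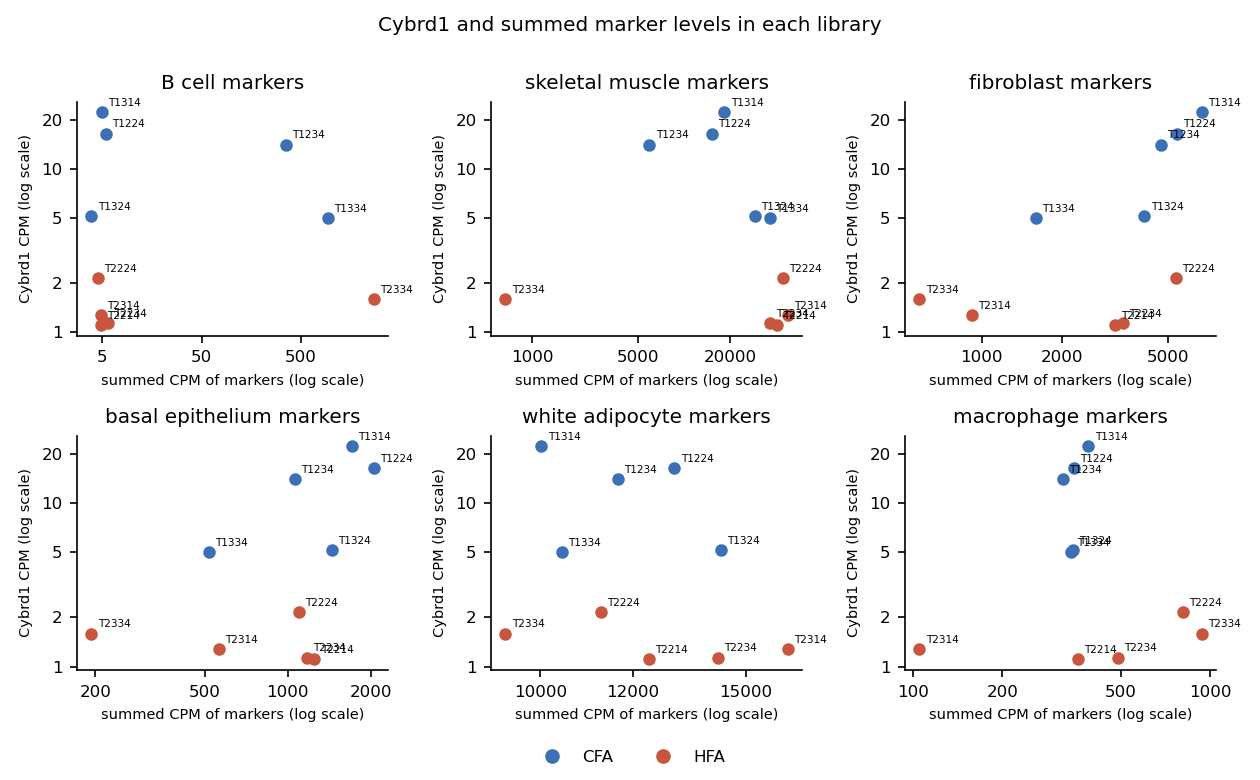
*Cybrd1* in CPM (vertical, log scale) against the summed CPM of marker genes of 6 cell types (horizontal, log scale), 1 point per library, CFA in blue and HFA in red. In the fibroblast panel T2224 (5327 CPM, *Cybrd1* 2.16 CPM) and T1224 (5371 CPM, *Cybrd1* 16.4 CPM) stood at nearly the same marker level.

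*Steap3*, the reductase of the endosome, and *Steap4*, a reductase abundant in fat, belong to the same functional class as *Cybrd1* but their groups were not separated. *Steap3* stood at 36.6, 32.7, 42.0, 44.2 and 32.8 CPM in CFA and at 51.9, 62.9, 45.1, 31.7 and 19.0 CPM in HFA, in the library order used above. The HFA libraries with digit 2 were above all CFA libraries and those with digit 3 below all of them. The fitted difference was 0.16 ± 0.28 (SE) over all libraries, 0.62 ± 0.26 within digit 2 and -0.65 ± 0.26 within digit 3. The change in the diet difference between digits was -1.27 ± 0.36 (SE) on the log2 scale and did not pass the adjusted threshold (adjusted p = 0.568, edgeR quasi-likelihood test with Benjamini-Hochberg adjustment). The lowest of the HFA values belonged to T2334, without which the overall difference was 0.31 ± 0.19 (SE).

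*Steap4* was the most abundant reductase of the 3, at 73.5 CPM per kb of exon on average against 6.98 for *Steap3* and 1.31 for *Cybrd1*. Its level in CFA was 270, 201, 214, 333 and 173 CPM, and in HFA it was 278, 259, 269, 215 and 107 CPM. The groups overlapped, and the lowest value was again that of T2334. The difference was -0.08 ± 0.27 (SE), smaller than its error, and its sign turned without T2334 (0.06 ± 0.19, SE) and also without T1324 (0.07 ± 0.27, SE). Read for read, *Cybrd1* had 0.0154 to 0.104 reads per *Steap4* read in CFA and 0.00398 to 0.0148 in HFA. These ranges did not overlap, but their nearest ends were close. They came from T1324 with 71 *Cybrd1* reads and T2334 with 25. Nothing is read from the ratio, since *Cybrd1* was chosen on this contrast.

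Among the importers, *Slc11a2*, the divalent metal transporter, stood at 27.0, 26.5, 28.8, 29.2 and 35.0 CPM in CFA. Its HFA levels were 27.6, 33.0, 31.6, 41.5 and 33.9 CPM, with the highest value in T2314. The groups overlapped, with a difference of 0.19 ± 0.13 (SE) that kept its sign when single libraries were removed (0.11 to 0.27). Of its exonic bases, 6.33% are shared with the antisense gene *Gm5475*, and the kit does not mark strand.

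*Tfrc*, the transferrin receptor that carries the 4 stem loops shown above, stood at 50.3, 52.3, 79.0, 68.9 and 76.0 CPM in CFA and at 49.7, 51.3, 67.0, 67.9 and 65.8 CPM in HFA. Both groups held low and high libraries, with 2 near 50 CPM in each, and they overlapped almost completely. The libraries near 50 CPM all had second title digit 2. Those with digit 3 stood at 65.8 to 79.0 CPM, and T2234, with digit 2, at 67.0 CPM. The difference was -0.11 ± 0.16 (SE), and -0.02 ± 0.12 (SE) with the digit as a term.

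*Trf*, which encodes the carrier transferrin, stood at 56.7, 62.4, 42.1, 68.4 and 45.6 CPM in CFA. The HFA libraries had 41.4, 41.1, 65.0, 52.8 and 26.5 CPM of it, again with T2334 lowest. The groups overlapped and differed by -0.28 ± 0.23 (SE), or -0.18 ± 0.18 (SE) without T2334. *Trf* shares 63.5% of its exonic bases with the gene model *Gm20425* on the same strand, which was listed at 0 reads in all 10 libraries, and reads on both are not counted, so the *Trf* level may be understated.

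*Slc40a1*, which encodes the exporter ferroportin, stood at 26.3, 26.7, 25.4, 22.3 and 12.3 CPM in CFA and at 15.6, 21.5, 26.1, 20.02 and 23.4 CPM in HFA. The lowest value of all was that of CFA library T1334, and the groups overlapped. The difference was -0.08 ± 0.22 (SE) and ran from -0.24 without T1334 to 0.01 without T2214. *Cybrd1* had 0.231 to 0.874 reads per *Slc40a1* read in CFA and 0.0435 to 0.1 in HFA. Nothing is read from this ratio either, since *Cybrd1* was chosen on this contrast.

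*Fth1*, the heavy chain of ferritin, was the most abundant of the 9 genes. It stood at 951, 893, 1007, 1196 and 1179 CPM in CFA and at 1238, 1223, 1297, 1595 and 1056 CPM in HFA. In 4 of the 5 HFA libraries it was above all CFA libraries, while T2334 lay inside the CFA range. The difference was 0.29 ± 0.18 (SE), with a range of 0.19 to 0.35 when single libraries were removed. Per read of *Tfrc*, the gene at the opposite end of iron regulation, *Fth1* had 12.7 to 18.9 reads in CFA and 16.1 to 24.9 in HFA, which overlapped. *Fth1* has many processed copies in the genome, and reads with several alignments (28.8% to 33.9% of the counted lines) were dropped, so its level is uncertain. Brown adipocyte markers summed to 99.9 to 687 CPM in CFA and to 213 to 1987 CPM in HFA, and their part in these levels was not tested.

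*Hfe*, which acts with the transferrin receptors in iron sensing upstream of hepcidin, stood at 48.5, 37.6, 44.7, 48.1 and 39.8 CPM in CFA. In HFA it stood at 66.3, 53.2, 50.2, 46.3 and 30.7 CPM, so that HFA held both the 3 highest libraries and the lowest one, T2334. The difference was 0.17 ± 0.19 (SE) over all libraries and 0.26 ± 0.13 (SE) without T2334. Across the 9 genes T2334 was the lowest of the 10 libraries for 4, namely *Steap3*, *Steap4*, *Trf* and *Hfe*.

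**Figure D3:**
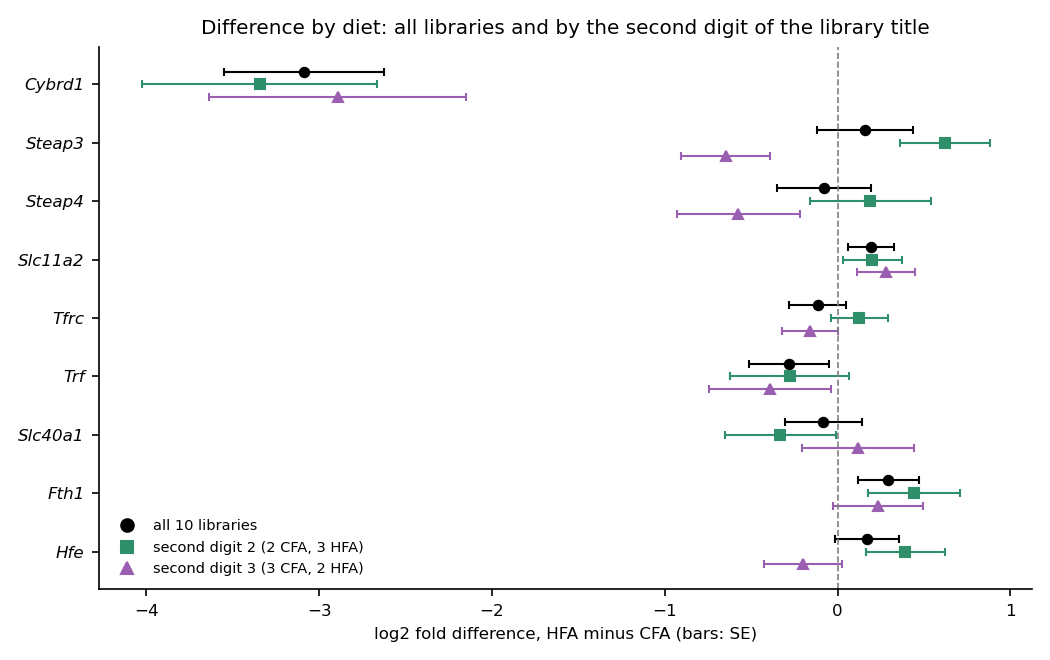
Difference by diet for the 9 genes, as log2 fold difference HFA minus CFA with bars of 1 SE, for all 10 libraries (black circles) and within the second title digit 2 (green squares) and 3 (purple triangles). *Cybrd1* lay at -3.09, -3.34 and -2.89, whereas the other 8 genes lay between -0.65 and 0.62, with *Steap3* on opposite sides of 0 in the 2 sets.

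Per kb of exon, averaged over the 10 libraries, the levels ran from *Fth1* at 335 CPM per kb and *Steap4* at 73.5 to *Trf* at 15.1, *Hfe* at 13.0, *Tfrc* at 10.2, *Steap3* at 6.98, *Slc11a2* at 4.95, *Slc40a1* at 2.44 and *Cybrd1* at 1.31. The places of *Fth1* and *Steap4* at the head of the order, and of *Slc11a2* above *Slc40a1*, held in 10 of 10 libraries. The other neighbours overlapped, as *Trf* was above *Hfe* in 7 libraries, *Hfe* above *Tfrc* in 7, *Tfrc* above *Steap3* in 8, *Steap3* above *Slc11a2* in 8 and *Slc40a1* above *Cybrd1* in 8. By group mean *Cybrd1* was last of the 9 genes in both diets. In CFA it stood at 2.35 ± 1.39 CPM per kb beside 2.51 ± 0.67 for *Slc40a1* (SD, n = 5), and was the lower of the pair in 3 of 5 libraries. In HFA it stood at 0.272 ± 0.082 CPM per kb beside 2.37 ± 0.44 for *Slc40a1*, and was the lower in 5 of 5 libraries.

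By Spearman correlation of log2 CPM over the 10 libraries, the genes most like *Cybrd1* were *Lipo3* (rho = 0.952), *Adamts8* (0.939), *Aplp1* (0.927), *Atp2b1* (0.927) and *Zc3h12b* (0.915). These values describe the same 10 libraries, so the diet groups enter the ranking. The list depended on the measure, since 3 of the 5 genes were also among the 5 first by Pearson correlation, and 2 of the 5 when the libraries with the highest and the lowest *Cybrd1* were left out. *Lipo3*, a lipase family gene with near copies whose reads are hard to separate, stood at 13.7 to 16.3 CPM in CFA and at 11.1 to 12.3 CPM in HFA. *Adamts8*, a secreted metalloprotease, stood at 2.69 to 10.1 CPM in CFA and at 1.42 to 2.33 CPM in HFA, with its 3 highest values in the same CFA libraries as *Cybrd1*. *Atp2b1*, a calcium pump of the plasma membrane, stood at 112 to 203 CPM in CFA and at 97.3 to 132 CPM in HFA, which overlapped. *Aplp1*, a relative of the amyloid precursor protein, and *Zc3h12b* stood at 3.66 to 6.25 and at 1.87 to 2.96 CPM in CFA, and at 2.21 to 3.62 and at 1.10 to 1.81 CPM in HFA. The fitted difference was -1.71 on the log2 scale for *Adamts8* and between -0.87 and -0.32 for the other 4 genes, less than the -3.09 of *Cybrd1*. Among the other 8 iron genes rho ran from 0.491 for *Slc40a1* to -0.818 for *Fth1*, which was high in the libraries where *Cybrd1* was low.

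**Figure D4:**
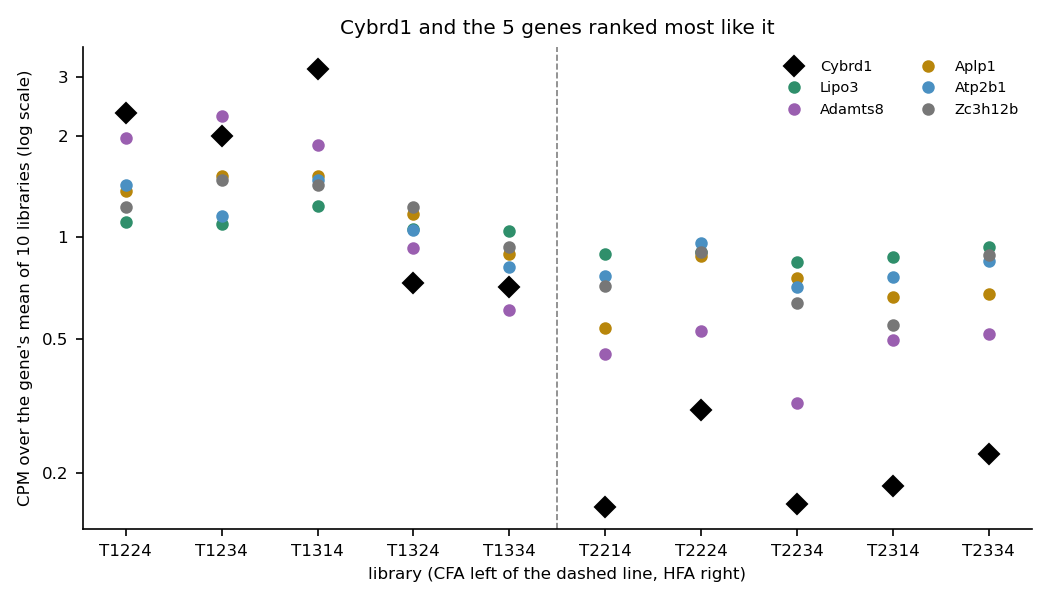
Level of *Cybrd1* (black diamonds) and of the 5 genes ranked most like it (coloured circles) in each library, as CPM divided by the mean of the gene over the 10 libraries (log scale), with CFA libraries left of the dashed line. All 6 genes were highest in T1224, T1234 and T1314, and *Cybrd1* had the widest span, from 1.11 to 22.2 CPM.

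The wider pathway was read from a list of 68 other iron genes, of which 64 were tested and *Ftmt*, *Hamp*, *Hamp2* and *Hpx* were too low. None passed the adjusted threshold (edgeR quasi-likelihood test with Benjamini-Hochberg adjustment, lowest adjusted p = 0.648), and 9 had an unadjusted p below 0.05, 5 higher and 4 lower in HFA. This is 14.1% of the list, beside 7.36% of all genes in either direction, 3.87% of all genes for higher and 3.49% for lower. The list was written with earlier results of these data known, so nothing is read from the larger share. With upper-quartile scaling the count was 6 of 64, beside 1092 of 15610 genes. With limma voom with quality weights it was 21 of 64, beside 4702 of 15610 genes. DESeq2 called *Tmprss6*, beside 60 of 15610 genes. With quality weights, limma voom called *Tmprss6*, *Alas2*, *Isca1* and *Bola3*, 4 of 64, beside 1037 of 15610 genes. The likelihood ratio test called none of them, beside 33 of 15610 genes, and limma voom without weights called 0 genes in all. The median difference of the list was 0.12 on the log2 scale, with 43 genes above 0 and 21 below, beside a median of 0.06 and 60.0% above 0 over all genes tested. With upper-quartile scaling the shares above 0 were 60.9% for the list and 49.6% for all genes.

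Outside the 9 genes, the most abundant reductase per kb was *Cyb561* (8.82 CPM per kb). In import it was the siderophore binder *Lcn2* (31.5), and among carriers in fluids lactoferrin, *Ltf* (33.9), which milk and neutrophils hold. *Lcn2* stood at 29.7 to 180 CPM in CFA and at 17.2 to 69.9 CPM in HFA, and *Ltf* at 67.4 to 184 CPM and at 12.9 to 248 CPM, so both overlapped. *Timd2*, a ferritin receptor, had an unadjusted p below 0.05, with 0.578 to 3.73 CPM in CFA and 0.554 to 1.29 CPM in HFA (difference -1.31 ± 0.54, SE, adjusted p = 0.656 by the edgeR quasi-likelihood test). It was scarce, at 0.455 CPM per kb.

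All 3 other genes of export and iron oxidation had differences below 0, as had 6238 of the 15610 genes tested. *Heph*, the ferroxidase hephaestin, differed by -0.14 ± 0.34 (SE), less than its error. *Cp*, the ferroxidase ceruloplasmin that works with ferroportin, stood at 184 to 379 CPM in CFA and at 142 to 259 CPM in HFA (-0.54 ± 0.22, SE). *Hephl1*, a related copper oxidase, stood at 4.17 to 39.5 CPM in CFA, where T1314 was far above the rest, and at 1.53 to 8.23 CPM in HFA (-1.72 ± 0.67, SE), with a difference of 0.11 ± 0.70 within digit 2 and of -3.32 ± 0.79 within digit 3. *Cp* and *Hephl1* had an unadjusted p below 0.05 and overlapped between the groups, with an adjusted p of 0.656 and of 0.655 by the edgeR quasi-likelihood test. Without T2334 the count below 0 was 2 of 3, beside 8671 of 15735 genes.

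In the hepcidin pathway, *Tmprss6*, the membrane protease that restrains hepcidin through hemojuvelin, stood at 3.96 to 15.4 CPM in CFA (median 5.92) and at 0.827 to 4.26 CPM in HFA (median 2.10). The groups overlapped, and the difference was -1.82 ± 0.47 (SE), the lowest on the list after *Cybrd1*, with an adjusted p of 0.648 by the edgeR quasi-likelihood test. *Hjv*, which encodes hemojuvelin and is made in muscle, was the most abundant gene of the pathway at 86.1 CPM per kb. It stood at 44.1 to 255 CPM in CFA and at 3.31 to 322 CPM in HFA. The lowest value was that of T2334, the library with the least muscle marker signal (668 CPM against 5914 CPM or more), and the part of muscle in the *Hjv* level was not tested. *Hamp* and *Hamp2*, the hepcidin genes themselves, did not pass the filter on low counts.

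**Figure D5:**
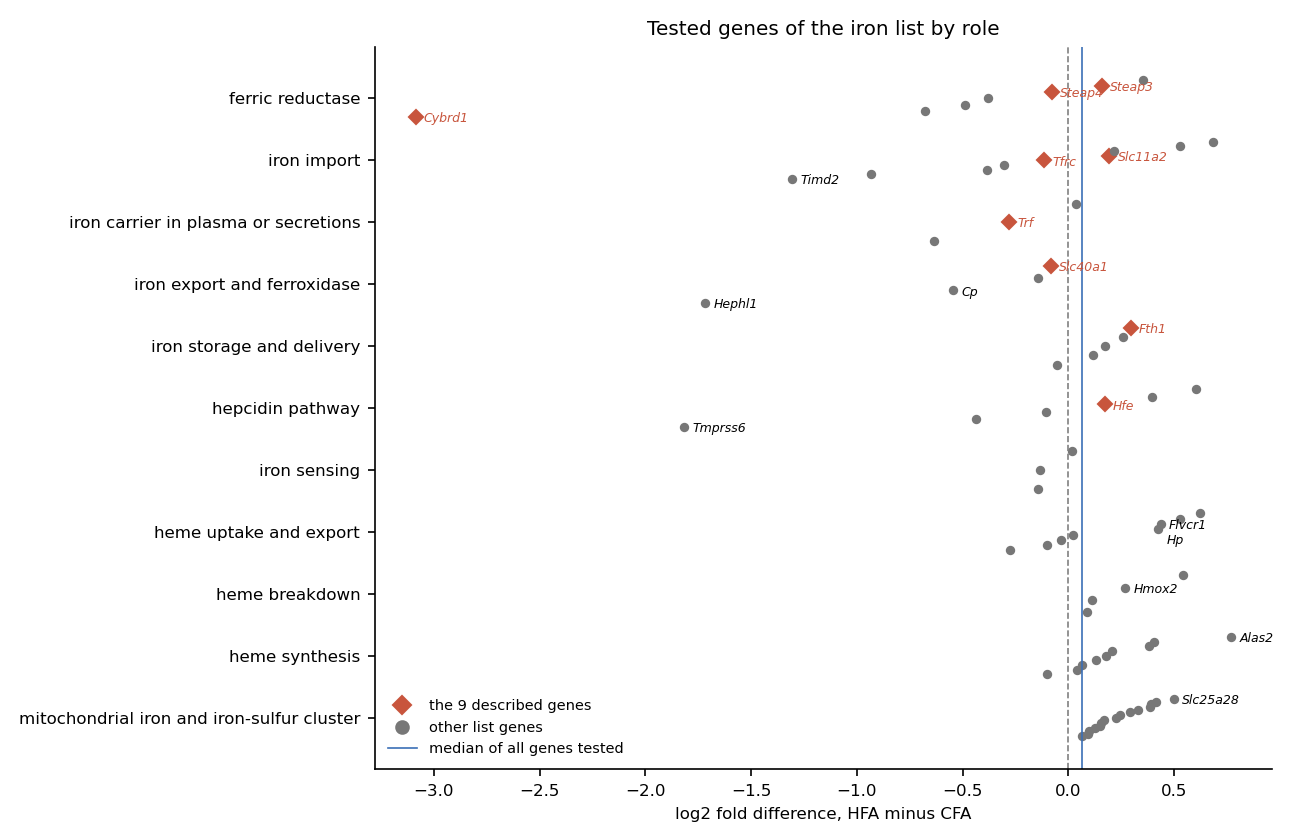
Log2 fold difference (HFA minus CFA) of the tested genes of the iron list, by role, with the 9 described genes as red diamonds, the other genes as grey circles, a dashed line at 0 and a blue line at the median of all genes tested (0.06). Names are given for the 9 genes and for the 9 other genes with an unadjusted p below 0.05, and *Cybrd1* at -3.09 lay farther from 0 than any other gene of the list.

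In storage and sensing, *Ftl1*, the light chain of ferritin, stood at 186 to 215 CPM in CFA and at 206 to 281 CPM in HFA (0.26 ± 0.13, SE, adjusted p = 0.678 by the edgeR quasi-likelihood test), beside 0.29 ± 0.18 for *Fth1*. Reads of *Fth1* per read of *Ftl1* ran from 4.65 to 5.62 in CFA and from 3.77 to 7.73 in HFA. *Ftl1* shares 26.5% of its exonic bases with the antisense gene *Gm10252* and has copies elsewhere, so its counts are uncertain. *Aco1*, which encodes an iron regulatory protein that binds the stem loops, stood at 208 to 271 CPM in CFA and at 142 to 275 CPM in HFA. Its difference was -0.14 ± 0.19 (SE).

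Among genes of the mitochondrion and of heme, 15 of 15 of mitochondrial iron and iron-sulfur clusters lay above 0, as did 8 of 9 of heme synthesis, 4 of 4 of heme breakdown and 5 of 8 of heme uptake and export, beside 60.0% of all genes. No gene of these roles passed the adjusted threshold. Without T2334 the counts were 14 of 15, 8 of 9, 3 of 4 and 6 of 8, beside 44.9% of all genes. Other single removals moved some counts more. Without T1234 the mitochondrial genes were 12 of 15, beside 53.3% of all genes. Without T1224 those of heme synthesis were 6 of 9, beside 52.6%. For heme uptake and export the count was 3 of 8 once lymphoid markers entered the fit as a covariate, beside 54.7% of all genes. *Slc25a28*, which carries iron into mitochondria, stood at 18.5 to 25.0 CPM in CFA and at 27.1 to 37.7 CPM in HFA (0.50 ± 0.14, SE, adjusted p = 0.648 by the edgeR quasi-likelihood test). *Hmox2*, a heme oxygenase, stood at 27.7 to 32.8 CPM and at 34.6 to 40.7 CPM (0.27 ± 0.10, SE, adjusted p = 0.655 by the edgeR quasi-likelihood test). These 2 of the 64 genes were the ones with every HFA library above every CFA library, as were 0.75% of all genes tested, and none was separated in the other direction. *Hmox2* shares 40.2% of its exonic bases with the antisense gene *Cdip1*. Without strand the reads on these shared bases cannot be assigned to either gene, so the *Hmox2* counts are uncertain.

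*Alas2*, the heme synthesis enzyme of red cell precursors, stood at 2.39 to 4.49 CPM in CFA and at 3.12 to 8.80 CPM in HFA (0.77 ± 0.29, SE). Erythroid markers, of which 7 of 8 were matched, summed to 20.4 to 30.6 CPM in CFA and to 24.2 to 58.5 CPM in HFA. Of these markers *Epb42* was at 0 in 9 libraries, and the part of blood in the *Alas2* level was not tested. *Alas1*, the form of the enzyme in other tissues, stood at 77.0 to 162 CPM in CFA and at 105 to 197 CPM in HFA (0.41 ± 0.22, SE). *Flvcr1*, a heme exporter, and *Hp*, the hemoglobin binder haptoglobin, had unadjusted p below 0.05 with differences of 0.44 ± 0.20 and 0.43 ± 0.18 (SE), and their groups overlapped. By the edgeR quasi-likelihood test the adjusted p was 0.655 for *Alas2*, 0.670 for *Flvcr1* and 0.656 for *Hp*. *Hmox1*, the inducible heme oxygenase, spread from 12.6 to 71.1 CPM in HFA against 21.3 to 27.6 CPM in CFA, and *Isca2*, of iron-sulfur cluster assembly, was the most abundant of its role at 19.4 CPM per kb.

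The change of the diet difference with the second title digit was also tested across all genes. No gene passed the adjusted threshold (0% of genes tested) and 8.46% had an unadjusted p below 0.05 by the edgeR quasi-likelihood test. Of the 64 other iron genes 5 did so, namely *Hephl1*, *Ireb2*, *Cd163*, *Lrp1* and *Hscb*, which were named after their values were seen. Of the 9 genes 1 did so, *Steap3*. *Cd163*, the macrophage receptor for hemoglobin with haptoglobin, differed by 1.19 within digit 2 and by -1.92 within digit 3. Macrophage markers summed to 359 to 809 CPM in HFA libraries with digit 2 and to 105 and 939 CPM in those with digit 3. In CFA they summed to 319 to 389 CPM. *Cd163* is itself 1 of these 8 markers, and the marker *Marco* alone ran from 0.183 to 465 CPM in HFA. The part of macrophages in the *Steap3* and *Cd163* values was not tested.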

How the data were processed

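RNA of the right thoracic mammary fat pad of 10 mice, 5 per diet, was sequenced as 75 bp reads from a TruSeq v2 library. The deposited files hold whole-number read counts per Ensembl gene, which the authors made with TopHat2 2.0.14, Bowtie2 2.2.5 and HTSeq 0.6.1 on GRCm38, without normalization, and reads with several alignments were not counted. The strand setting of the counting is not given in the sources used here. The 5 HTSeq summary lines of each file stayed out of library sizes and tests (reads on no gene were 3.43% to 5.47% of the lines). Symbols, exon lengths and UTRs came from GENCODE M21, where 46488 of the 46983 genes matched.

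Counts were filtered with filterByExpr, scaled by TMM and tested with the quasi-likelihood test of edgeR 4.0.16 in R 4.3.3, HFA against CFA, two-sided and with no covariate. P-values of 15610 genes were adjusted by Benjamini-Hochberg, and the threshold was 0.05. The common biological coefficient of variation was 0.409. All 9 genes passed the filter, *Cybrd1* with at least 1.11 CPM in every HFA library. Standard errors are the log2 difference divided by the root of F. CPM per kb divides by the union of exons. The study also modelled cage, which the labels do not give, so it was no term here. Libraries were separate mice, no pair was a copy (highest Pearson r over genes 0.996, lowest chi-square per gene 10.9), and the test was first checked on simulated data with known changes.

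The 9 genes, the list of 68 further iron genes and the marker lists were chosen with earlier results of these data known. From the list are named, for each role, the most abundant gene per kb and every gene with an unadjusted p below 0.05, plus the 5 genes with the highest Spearman correlation with *Cybrd1* among all genes tested. The alternatives changed the scaling (RLE, upper quartile), the filter (none, or CPM above 1 in 5 libraries) or the test (likelihood ratio, robust quasi-likelihood, DESeq2 1.42.0, voom of limma 3.58.1, also with quality weights). Others added a term for the second title digit, for all digits after the first as a block or for B and T cell markers. Still others removed single libraries. In the block fit T1324 and T2214 share their digits with no other library, so they add nothing to the diet difference. Leaving out the 3 libraries with B cell markers over 100 CPM was added after the data were seen.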

Additional observations from a re-analysis of the deposited data

Results flagged for a closer look

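Dixon's test was applied to 54 groups of 5 libraries, the 27 iron genes named by the rule in each diet, and 3 had 1 library far from the others, where chance alone gives about 1 in 20. *Hephl1* stood at 39.5 CPM in CFA library T1314, with 12.5 CPM in the next library. *Hjv* stood at 3.31 CPM in HFA library T2334, with 235 CPM in the next library. *Lcn2* stood at 17.2 CPM in HFA library T2334, with 61.1 CPM in the next library. None of the 9 genes described first was among the 3.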

How the results depend on the processing

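The differences of the 9 genes moved by less than 1 SD of log2 CPM between libraries of a diet in 207 of 207 values over 23 alternatives. Mean CPM moved by less than the SD of its group in 36 of 36. Removing 1 of 5 libraries or changing the scaling can hardly move a mean by that much, so nothing is read from these counts. *Cybrd1* lay between -3.32 and -2.83, and it was among the called genes in 4 alternatives (likelihood ratio test, DESeq2, voom with quality weights, B cell marker libraries left out), which is no separate evidence since it was chosen on this contrast. The sign turned in 3 alternatives for *Steap3* and *Steap4* each, in 2 for *Slc40a1* and in none for the others.

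The count of all genes differing by diet went from 0 to 33 with the likelihood ratio test, 60 with DESeq2, 1037 with voom with quality weights, 3 with the B and T cell covariate and 469 with the B cell marker libraries left out. With single libraries left out it ran from 0 to 6, the latter without T2334. The count among the other iron genes went from 0 to 1 with DESeq2 (*Tmprss6*) and to 4 with voom with quality weights (*Tmprss6*, *Alas2*, *Isca1*, *Bola3*). It went to 1 with the B cell marker libraries left out (*Tmprss6*). Those at an unadjusted p below 0.05 ran from 3 without T1314 to 21 with voom with quality weights. Beside these stood 553 of 15783 and 4702 of 15610 genes. The interaction count went from 0 to 31 with the likelihood ratio test and 65 with DESeq2, both with *Cd163* of the iron genes, and ran from 0 to 4058 with single libraries left out. The 4058 came without T2314, where T2334 is the lone HFA library with digit 3 and is assumed to vary like the other groups, and it held *Steap3* and 11 of the other iron genes. The cause of these shifts was not tested.

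The 4 pairs of libraries whose titles share all digits after the first had correlations of their deviations from -0.29 to 0.41, so the digits were not taken to pair the mice. With a replicate block by these digits 0 genes differed by diet, and *Cybrd1* differed by -3.05 on the log2 scale. Few reads limit *Cybrd1* in HFA (8 to 25 per library), and T2334 limits every HFA mean.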
